A study of Equus caballus with 32 samples.

Results

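A set of 7 genes that mark dendritic cells, or that control their development, was followed in horse blood: CLEC9A, XCR1, FLT3, BATF3, IRF8, IRF4 and TCF4. They were chosen by name, as all probes of the arrays that are not controls and whose gene name in the scanner files is one of these 7. The rule found 21 probes of 43987 in all, of which 19 stood well above background often enough to be tested, out of 26368 tested probes. Of the genes, 6 of 7 could be tested, among 9300 tested genes in all. The samples were venous whole blood of 32 Welsh Pony mares, taken 30 days after weaning, with 1 single-colour Agilent array per mare. The weaning was progressive in 16 mares and brutal in the other 16, and the labels give neither the procedures nor the mares' ages. The comparison asks whether the way of weaning shows in the mares' blood transcripts 30 days later.

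Dendritic cells take up antigen and present it to T cells, and in blood they are a rare cell type. The cross-presenting subset, called cDC1, carries the receptor CLEC9A, which binds actin exposed by dead cells, and in human and mouse also the chemokine receptor XCR1. FLT3 is the receptor tyrosine kinase for the growth factor that dendritic cell precursors need. In mouse, BATF3 and IRF8 are transcription factors required for cDC1, IRF4 serves the second conventional subset (cDC2) and also plasma cells, and TCF4 is the master regulator of plasmacytoid dendritic cells (pDC). IRF8 and TCF4 are also expressed by B cells, and BATF3 and FLT3 are not exclusive to dendritic cells. In whole blood, fewer cells of a type and less RNA per cell cannot be told apart.

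The sequences below are shown because they fix what was measured: which receptor or factor each probe reads, and where probes of a gene are the same stretch of sequence. They are copied 5′ to 3′ from the scanner files, whose coordinates are given beside them. The file headers name the build EquCab1, and whether the coordinates follow that build was not checked, but the chromosome of each of the 7 genes is the one in NCBI RefSeq's horse gene table. Both CLEC9A probes lie on chromosome 6, end to end, and in the second the final codon in capitals is a stop that closes a frame open over its 60 bases. The BATF3 probe matches 2 stretches of chromosome 5 that an intron separates, since its 60 bases span 17212110 to 17220400. The 5 IRF8 probes on chromosome 3 share the 53 bases in capitals, and the 5 IRF4 probes on chromosome 20 share the 56 bases in capitals.
CLEC9A first probe, chr6:37376113-37376172, plus strand: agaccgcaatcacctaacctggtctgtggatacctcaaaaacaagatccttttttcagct
CLEC9A second probe, chr6:37376173-37376232, plus strand: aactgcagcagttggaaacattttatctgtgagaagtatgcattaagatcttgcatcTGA
XCR1, chr16:40660387-40660446, plus strand: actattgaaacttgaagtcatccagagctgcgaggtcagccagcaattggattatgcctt
BATF3, chr5:17212110-17220400, plus strand: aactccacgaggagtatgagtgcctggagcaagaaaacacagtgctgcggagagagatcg
IRF8 brightest probe, chr3:32820116-32820175, plus strand: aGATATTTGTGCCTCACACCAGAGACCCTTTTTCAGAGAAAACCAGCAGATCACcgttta
IRF4 brightest probe, chr20:534244-534303, plus strand: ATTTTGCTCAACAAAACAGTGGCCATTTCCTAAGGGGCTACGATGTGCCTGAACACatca
The FLT3 probes lie side by side on the minus strand of chromosome 17, the brighter at 7803984 to 7804043 and the other at 7803924 to 7803983. The 5 TCF4 probes lie on the minus strand of chromosome 8, the brightest at 66174923 to 66174982. Because the IRF8 probes share most of their bases, as do the IRF4 probes, they are repeated readings of 1 stretch and not separate measurements.

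Values are log2 signals relative to the 75th percentile of the array, so 0 is the signal at that percentile, and a level is comparable between mares but not between probes. That percentile lay between 339 and 646 intensity units, and the scanner software called 53.0 to 66.0% of an array's spots well above background. Every one of the 4 slides carries 4 progressive and 4 brutal mares, so slide and group are not confounded, and each of the 2 array rows holds 8 progressive and 8 brutal mares over the series. Each gene is described by its brightest tested probe. Differences are progressive minus brutal from limma over all 26368 tested probes, with p adjusted by Benjamini-Hochberg and called when under 0.05. With 1 array per mare, the spread is that between animals.

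No dendritic cell marker gene passed the threshold between the weaning groups. Limma called 0 of the 19 tested member probes, against 0% of all tested probes. At an unadjusted p under 0.05 there were 2 of 19, both of CLEC9A and both higher after progressive weaning, where 2.71% of all tested probes reached that level and 0.925% did so with a higher value in progressive. The adjusted p was 0.997 for each of the 19 member probes. The 5 IRF8 probes had differences below 0 and the other 14 probes differences above 0, while 44.9% of all tested probes were above 0. Probes of the same gene are not separate measurements. Counted by gene, IRF8 was the only 1 of the 6 below 0, where 42.6% of all 9300 tested genes were above 0.

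**Figure D1:**
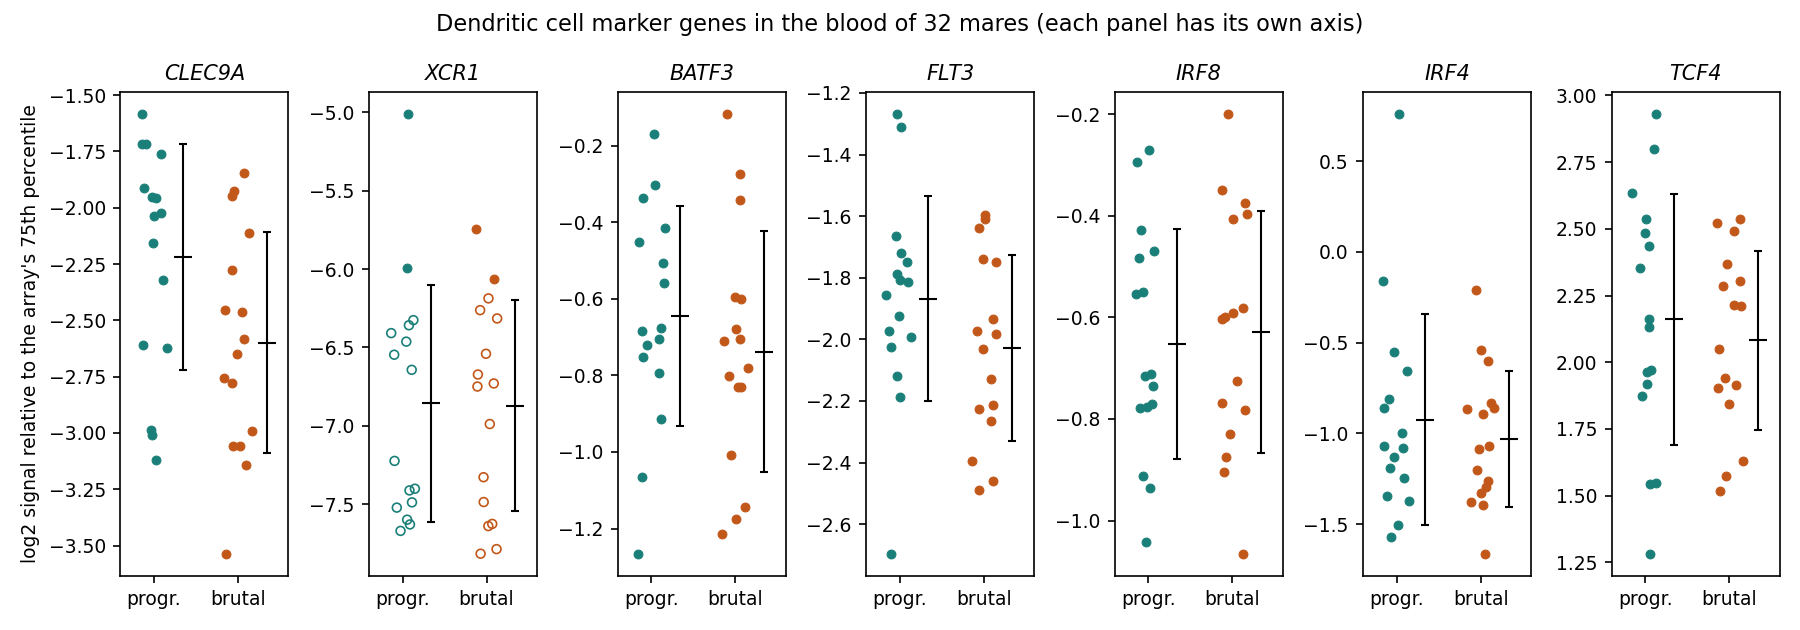
Log2 signal relative to the array's 75th percentile (y axis, a separate scale in each panel) of the 7 genes in 16 progressive (left) and 16 brutal (right) mares, with 1 point per mare and the mean ± SD as a bar beside the points. Filled points stand well above background and open points do not. The groups overlap in every panel, and XCR1 is well above background in 2 mares of each group only.

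CLEC9A showed the widest gap between the groups among the brightest probes of the 6 measured genes. Its level after progressive weaning ran from -3.12 to -1.58 with a median of -2.03, against -3.54 to -1.84 with a median of -2.62 after brutal weaning. The groups overlapped over most of their range, and 12 of 16 progressive mares lay above the brutal median. The means were -2.22 ± 0.50 in progressive and -2.60 ± 0.49 in brutal mares (SD, n = 16 each), a difference of 0.38 (SE 0.17, 95% interval 0.04 to 0.73) or 1.30-fold. Limma gave an unadjusted p of 0.0319 and an adjusted p of 0.997. A two-sided permutation test of this single value with 100000 relabellings gave p = 0.0392, and p = 0.0431 with relabelling within slides only. For the other 5 measured genes the permutation p lay between 0.168 and 0.774, and these p-values are not adjusted for CLEC9A having the widest gap of the 6. The CLEC9A difference was 0.20 with normexp background correction (unadjusted limma p = 0.0728) and 0.25 with array weights (unadjusted p = 0.145).

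The second CLEC9A probe, dimmer and printed as 2 spots, gave -3.62 ± 0.44 in progressive and -4.06 ± 0.55 in brutal mares (SD, n = 16 each). Its difference was 0.44 (SE 0.17, unadjusted p = 0.0146, adjusted p = 0.997 in limma). It stood well above background on 16 progressive and 14 brutal arrays, and its 2 spots on an array differed with an SD of 0.40. The 2 probes correlated at r = 0.89 over the 32 mares, so the second probe repeats the first gene reading in the same RNA.

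The CLEC9A difference was above 0 on each slide but uneven. On slide 2 it was 0.84, and there all 4 progressive mares lay above all 4 brutal mares. It was 0.33 on slide 3, 0.29 on slide 4 and 0.07 on slide 1, where the groups overlapped. Without slide 2 it was 0.23 with an unadjusted limma p of 0.284. By array row it was 0.47 in row 1 and 0.29 in row 2, with 8 mares of each group per row. Leaving out brutal 16, the mare with the lowest CLEC9A, gave 0.32 with an unadjusted p of 0.0616.

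**Figure D2:**
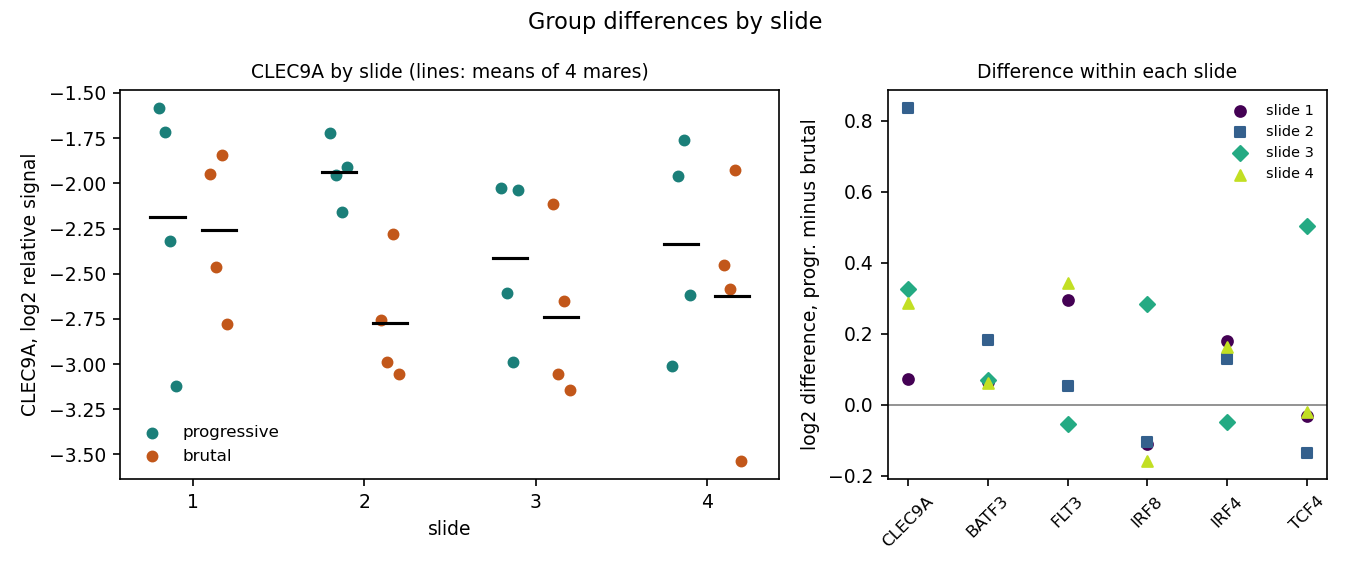
Left, CLEC9A log2 relative signal (y axis) of each mare by slide (x axis), progressive left of brutal, with lines at the means of 4 mares. Right, the difference progressive minus brutal within each slide (y axis) for the 6 measured genes, each by its brightest probe. CLEC9A separates the groups fully on slide 2, where the difference is 0.84, and TCF4 differs by 0.50 on slide 3 and by under 0 on the other slides.

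Markers of other blood cells were also set beside the CLEC9A difference. Of the neutrophil markers, 13 of 14 tested genes were lower in progressive mares, and their summed linear signal ran from 123 to 552 in progressive and 137 to 439 in brutal mares. Such a sum weighs the brightest probes most. Of the platelet markers, 7 of 7 were lower, with sums of 1.76 to 7.26 in progressive and 2.78 to 9.67 in brutal mares. None of these genes passed the threshold in limma, while 1 of 14 neutrophil and 4 of 7 platelet markers reached an unadjusted p under 0.05, where 2.44% of all tested genes did. Of the erythroid markers, 1 of 5 was higher and 4 lower, 2 of 5 reached that level, and the median difference was -0.47, against -0.21 for the neutrophil and -0.40 for the platelet markers. Over all tested genes, 5340 of 9300 were lower. CLEC9A correlated with the neutrophil score at r = -0.33, with the platelet score at r = -0.10 and with the erythroid score at r = -0.12, and the part of these cell types in the CLEC9A difference was not tested. The progressive-minus-brutal differences of the 13 tested T cell markers had a median of -0.022 and those of the 12 B cell markers one of 0.019, with CD3D at 0.01. In the other lists, 5 of 5 plasma cell, 6 of 12 monocyte, 5 of 12 NK and cytotoxic, 1 of 4 basophil and eosinophil and 1 of 3 stem and progenitor cell markers were higher in progressive mares, and limma called none of them. At an unadjusted p under 0.05 there were 2 of 12 monocyte and 1 of 12 NK and cytotoxic markers. The monocyte markers' differences ran from -0.36 to 0.58.

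XCR1 could not be measured in this blood. Its probe was well above background on 2 of 16 progressive and 2 of 16 brutal arrays. The mares were progressive 10, progressive 11, brutal 4 and brutal 14. The values after progressive weaning ran from -7.67 to -5.01 with a median of -6.93, against -7.82 to -5.74 with a median of -6.74 after brutal weaning, most of them bounds set by the background. Its 2 spots on an array differed with an SD of 0.84, more than the SD of 0.70 between mares. In a fit with no filter on dim probes the difference was 0.02 (SE 0.25).

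FLT3, the growth factor receptor, ran from -2.70 to -1.27 with a median of -1.83 in progressive mares, against -2.49 to -1.60 with a median of -2.01 in brutal mares. The lowest value, of progressive 11, and the highest, of progressive 16, both lay in the progressive group, and the groups overlapped. The means were -1.87 ± 0.33 in progressive and -2.03 ± 0.30 in brutal mares (SD, n = 16 each), a difference of 0.16 (SE 0.11, 95% interval -0.07 to 0.38, unadjusted limma p = 0.161). The second FLT3 probe gave 0.19 (SE 0.13) and correlated with the first at r = 0.91. The difference of the first probe was above 0 on slides 1, 2 and 4 and -0.05 on slide 3. That of the second was above 0 on 4 of 4 slides, with 0.08 on slide 3. Over all fits with 1 mare left out, the first probe's difference ran from 0.12 to 0.21. Its unadjusted limma p ran from 0.0417, without progressive 11, to 0.277. FLT3LG, the gene of its ligand and named here for that role, averaged 8.12 ± 0.28 in progressive and 8.17 ± 0.27 in brutal mares (SD, n = 16 each), and its r with FLT3 over the 32 mares was -0.22.

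BATF3, the cDC1 factor, ran from -1.27 to -0.17 with a median of -0.68 in progressive mares, against -1.22 to -0.12 with a median of -0.75 in brutal mares. The ranges nearly coincided. The means were -0.64 ± 0.29 in progressive and -0.74 ± 0.31 in brutal mares (SD, n = 16 each), a difference of 0.09 (SE 0.11, 95% interval -0.12 to 0.31, unadjusted limma p = 0.383). It was above 0 on 4 of 4 slides, between 0.06 and 0.18.

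IRF8, the factor shared by cDC1, pDC and B cells, ran from -1.04 to -0.27 with a median of -0.71 in progressive mares, against -1.07 to -0.20 with a median of -0.60 in brutal mares. Its spread was the narrowest of the 6 genes, and 25.8% of tested probes had a smaller SD between mares. The means were -0.65 ± 0.23 in progressive and -0.63 ± 0.24 in brutal mares (SD, n = 16 each), a difference of -0.02 (SE 0.08, 95% interval -0.19 to 0.15, unadjusted limma p = 0.781). Within slides it was -0.11, -0.11, 0.28 and -0.16 on slides 1 to 4, and its sign turned when slide 1, 2 or 4 was left out.

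IRF4, the factor shared by cDC2 and plasma cells, ran from -1.57 to 0.76 with a median of -1.08 in progressive mares, against -1.66 to -0.21 with a median of -1.08 in brutal mares. The 2 highest values were those of progressive 2, at 0.76, and progressive 7, at -0.16, and the medians were alike. The means were -0.92 ± 0.58 in progressive and -1.03 ± 0.38 in brutal mares (SD, n = 16 each), a difference of 0.11 (SE 0.17, 95% interval -0.23 to 0.45, unadjusted limma p = 0.532). Without progressive 2 the difference was -0.01. The mares spanned a 5.36-fold range of IRF4 signal, and its 5 overlapping probes correlated at r = 0.97 to 0.98.

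TCF4, the pDC factor, ran from 1.28 to 2.93 with a median of 2.15 in progressive mares, against 1.52 to 2.54 with a median of 2.13 in brutal mares. The medians were close, and progressive mares held both ends of the range. The means were 2.16 ± 0.47 in progressive and 2.08 ± 0.34 in brutal mares (SD, n = 16 each), a difference of 0.08 (SE 0.14, 95% interval -0.21 to 0.37, unadjusted limma p = 0.579). By this brightest probe it was 0.50 on slide 3, below 0 on slides 1, 2 and 4, and -0.06 when slide 3 was left out. The other 3 tested TCF4 probes gave 0.09, 0.18 and 0.18, and the 4 correlated at r = 0.94 to 0.99. Both probes that gave 0.18 were above 0 on slides 1, 3 and 4 and below 0 on slide 2. The fifth probe stood well above background on 0 progressive arrays and 1 brutal array.

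**Figure D3:**
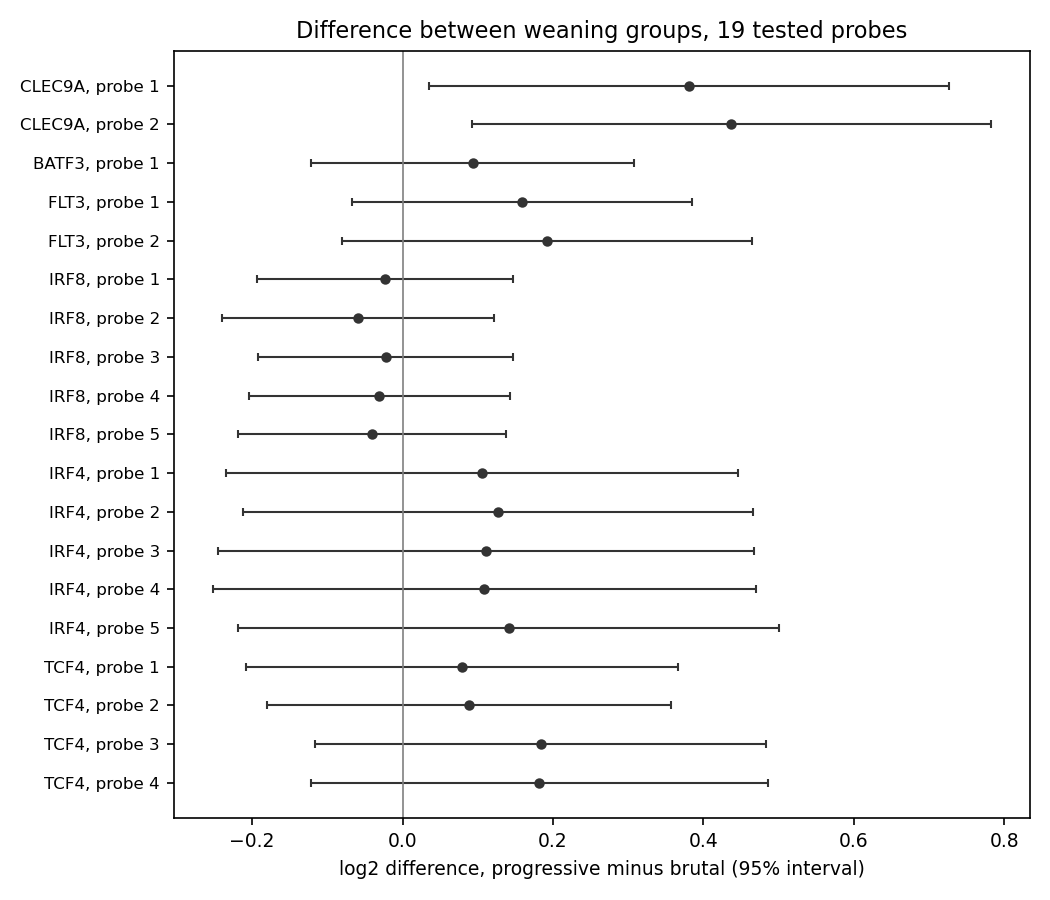
Log2 difference progressive minus brutal (x axis) of the 19 tested probes (rows, ordered by gene and brightness), with points for the limma estimate and bars for the 95% interval from 16 mares per group. The intervals of the 2 CLEC9A probes lie above 0, and those of the other 17 probes include 0.

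Other genes of dendritic cells showed no common shift. Of 49 tested genes in 5 lists, limma called 0, 20 were higher and 29 lower in progressive mares, and the median difference was -0.037. Over all 9300 tested genes 42.6% were higher, the median was -0.018, and limma called 0, with 2.44% at an unadjusted p under 0.05. Of the genes in the cDC1 list, 5 of 7 were higher (median 0.057), and 6 of 7 with quantile normalisation. Among them BTLA, an inhibitory receptor that B cells also carry, differed by 0.20 (SE 0.14, unadjusted p = 0.151), SNX22 by 0.27, CLNK by 0.12, CADM1 by 0.06, WDFY4, which cross-presentation needs in mouse, by 0.00 and ID2 by -0.01. Of the cDC2 genes, 5 of 10 were higher (median -0.029). RELB, an NF-kB subunit, differed by -0.22, the horse CD1 genes CD1A1 and CD1A2 by 0.19 and 0.17, SIRPA by -0.29, KLF4 by 0.05 and CD2 by 0.01.

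Of the genes in the pDC list, 2 of 10 were higher and 8 lower (median -0.107), or 3 and 7 with quantile normalisation. None had an unadjusted p under 0.05. PACSIN1 averaged -2.99 ± 0.32 in progressive and -2.76 ± 0.42 in brutal mares (SD, n = 16 each), a difference of -0.22 (SE 0.13, unadjusted p = 0.0946 in limma). UNC93B1, the chaperone of endosomal Toll-like receptors, differed by -0.17, the phospholipase family member PLD4 by -0.15, the RNA sensor TLR7 by 0.10, SLC15A4 by -0.04 and MYBL2 by 0.02. The surface markers IL3RA, CLEC4C and LILRA4 were not analysed here under these names. Of the growth and development genes, 3 of 12 were higher (median -0.063), with SPI1, the myeloid factor PU.1, at -0.28 (SE 0.15, unadjusted p = 0.0707), STAT3 at -0.18, IKZF1 at 0.31, CBFB at -0.10, and STAT5A and STAT5B at 0.01 and -0.01. Of the maturation genes, 5 of 10 were higher (median 0.023). IL12A, a subunit of interleukin 12, averaged -4.51 ± 0.35 in progressive and -4.73 ± 0.28 in brutal mares (SD, n = 16 each), with an unadjusted p of 0.0476 and an adjusted p of 0.997 in limma. CCL19 differed by -0.19, the lymph node homing receptor CCR7 by 0.15, LAMP3 by -0.13, CCL22 by 0.05 and CD86 by 0.00.

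The mares differed among themselves more than the groups did, and the members did not all vary together. Pearson and Spearman correlations were computed for the 15 pairs of the 6 measured genes over the 32 mares, with two-sided permutation tests of 100000 resamples and Benjamini-Hochberg adjustment over the 15. At an unadjusted p under 0.05 there were 4 of 15 pairs (26.7%), all positive, and the same 4 passed after adjustment. Of all pairs of tested genes, 26.8% reached that unadjusted level in either direction, so the unadjusted share of member pairs is near that of other gene pairs. The pairs were CLEC9A with BATF3, CLEC9A with FLT3, BATF3 with FLT3, and IRF8 with TCF4.

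CLEC9A and BATF3 were the closest pair of members. Their r was 0.58 (permutation p = 0.00063, adjusted 0.00945) and their rho 0.54 (permutation p = 0.0015, adjusted 0.0225). The r was 0.58 within the 16 progressive and 0.56 within the 16 brutal mares, 0.55 to 0.87 within the 4 slides, and 0.52 without the 2 mares farthest from the CLEC9A median. By array row it was 0.26 in row 1 and 0.78 in row 2, with 16 mares each. Of 9146 other genes, 10 had a higher r with CLEC9A than BATF3 had, and 38 a higher r than FLT3 had.

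CLEC9A and FLT3 had an r of 0.52 (permutation p = 0.00226, adjusted 0.017) and a rho of 0.43 (permutation p = 0.0154, adjusted 0.1). BATF3 and FLT3 had an r of 0.47 (permutation p = 0.00707, adjusted 0.0354) and a rho of 0.38 (permutation p = 0.0336, adjusted 0.126). Both relations leaned on extreme mares. Without the 2 mares farthest from the median the first was 0.39 (permutation p = 0.035) and the second 0.33 (permutation p = 0.0743). BATF3 with FLT3 did not pass with slide means removed (adjusted permutation p = 0.0839) or in the authors' series table (0.0832). Of 9146 other genes, 163 had a higher r with BATF3 than FLT3 had, and 75 a higher r with FLT3 than BATF3 had. Brutal 16 stood among the lowest 5 of 32 in CLEC9A, BATF3 and FLT3 alike, and it was also lowest in IRF8 and IRF4. Progressive 1 was highest in CLEC9A and TCF4 and second in FLT3, and progressive 11 was lowest in BATF3 and FLT3.

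IRF8 and TCF4 had an r of 0.43 (permutation p = 0.0133, adjusted 0.04995) and a rho of 0.41 (permutation p = 0.0201, adjusted 0.1). The r was 0.76 within the progressive and 0.04 within the brutal mares, a difference that was not tested. The pair did not pass with quantile normalisation (adjusted permutation p = 0.139), in the authors' series table (0.172) or without progressive 16 (0.066). Of 9146 other genes, 138 had a higher r with IRF8 than TCF4 had, and 883 a higher r with TCF4 than IRF8 had. IRF4 correlated with no other member beyond 0.20 in either direction, and TCF4 and BATF3 stood at r = -0.31 (adjusted permutation p = 0.24).

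**Figure D4:**
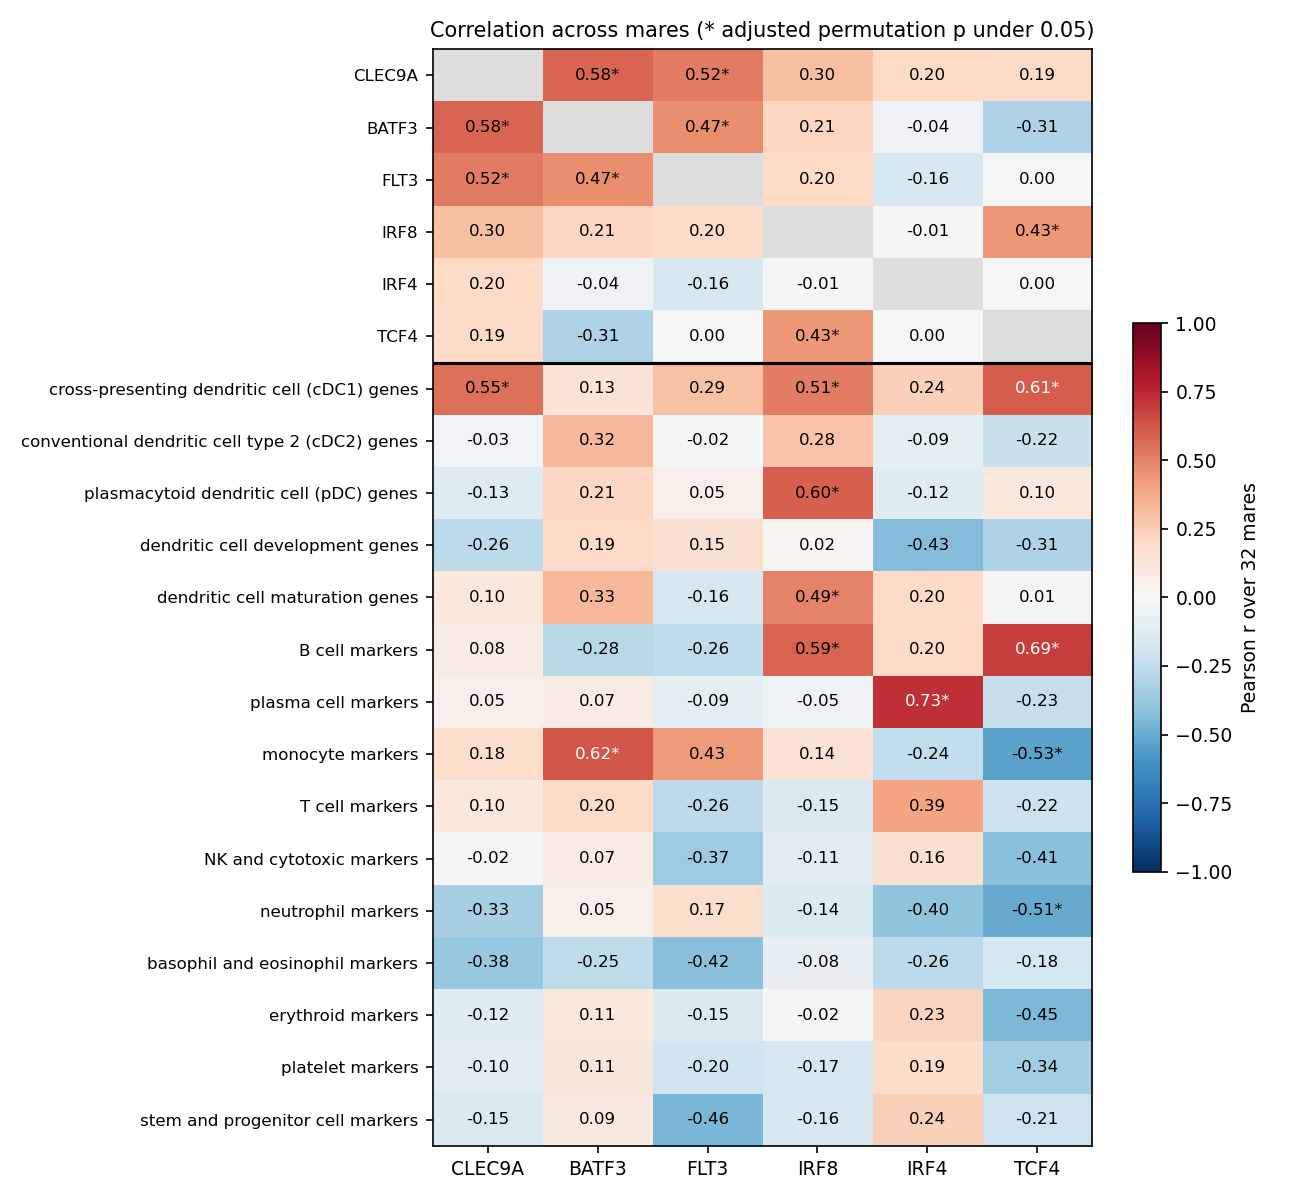
Pearson r over 32 mares (colour and printed value) of the 6 measured member genes (columns) with each other (rows above the line) and with the mean z score of 15 marker lists (rows below it). Stars mark an adjusted permutation p under 0.05 within each family. Stars stand at 4 of 15 member pairs and at 11 of 90 relations with lists, the highest r being 0.73 for IRF4 with the plasma cell markers. At an unadjusted p under 0.05 there were 4 member pairs (26.7%, against 26.8% of all gene pairs). At that level there were 21 relations with lists (23.3%, against 25.4% over all tested genes).

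The label of dendritic cell marker was then set against markers of other blood cells. Each member was correlated with the scores of 15 lists, 90 relations in all, a score being the mean z value of a list's tested genes. At an unadjusted permutation p under 0.05 there were 21 (23.3%), where 25.4% of the same relations over all tested genes were as strong, and 11 passed after adjustment. The unadjusted share is thus near that of all tested genes. After adjustment, CLEC9A ran with the cDC1 list only, with which TCF4 and IRF8 also ran, TCF4 at a higher r than CLEC9A. IRF4 ran with plasma cell markers, by r but not by rho, and TCF4 with B cell markers above all. By rho but not by r, IRF4 passed with the growth and development list (rho -0.49, adjusted permutation p = 0.0418). The same held for the neutrophil markers (rho -0.50, adjusted permutation p = 0.0354). IRF8 ran with B cell markers and with the pDC, cDC1 and maturation lists, and BATF3 with monocyte markers. These relations were not particular to the members. Of 9147 tested genes, those of the lists included, 130 had a higher r with the cDC1 list than CLEC9A had. With monocyte markers 213 had a higher r than BATF3, and with the maturation list 429 a higher r than IRF8. With B cell markers 64 had a higher r than TCF4, and with plasma cell markers 10 a higher r than IRF4.

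CLEC9A correlated with the cDC1 list at r = 0.55 (permutation p = 0.0012, adjusted 0.0154; rho 0.55, adjusted 0.0223). Without the 2 farthest mares r was 0.38 (permutation p = 0.039). Within the list, its r was 0.62 with CLNK, an adaptor protein, 0.38 with CADM1, an adhesion molecule of cDC1, 0.37 with SNX22, 0.15 with WDFY4, 0.10 with BTLA, 0.05 with ID2 and -0.09 with XCL1. The 3 genes most like CLEC9A over the 32 mares, as a description, were CPVL (r = 0.80), a serine carboxypeptidase of monocytes and dendritic cells, DNASE1L3 (0.79), a secreted DNase made by dendritic cells and macrophages, and GPIHBP1 (0.72), which anchors lipoprotein lipase. Each of the 3 had an r of at least 0.69 without the 2 farthest mares. Their own differences between the groups were 0.21, 0.23 and 0.32, with unadjusted limma p of 0.143, 0.141 and 0.0896.

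BATF3 correlated with the monocyte markers at r = 0.62 (permutation p = 0.00024, adjusted 0.00585; rho 0.63, adjusted 0.0081), and at 0.56 without the 2 farthest mares. Within slides r was 0.51, 0.27, 0.17 and 0.75, and with slide means removed the adjusted p was 0.0516. Among the brightest monocyte markers, its r was 0.40 with CD14, the lipopolysaccharide co-receptor, 0.37 with S100A4 and 0.23 with CTSS. CPVL, listed as a monocyte marker, was at 0.70, and without it, a choice made after seeing the data, the list's r was 0.55. The genes most like BATF3 were NIT1 (r = 0.72), an amidase, CPVL (0.70) and GPIHBP1 (0.68). FLT3 correlated with the monocyte markers at r = 0.43, which did not pass after adjustment, and was most like DOCK1 (0.73), PHF10 (0.71) and CPVL (0.69). CPVL was thus among the 3 most alike for each of CLEC9A, BATF3 and FLT3. The summed signal of the 12 monocyte markers ran from 493 to 807 in progressive and 478 to 865 in brutal mares, with medians of 553 and 687. Most of this sum is S100A4, with mean log2 values of 8.89 in progressive and 9.03 in brutal mares, where CTSS, the next brightest, had 5.96 and 6.02. What part monocytes have in these correlations was not tested.

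IRF8 correlated with 4 lists. The r was 0.60 with the pDC list (permutation p = 0.00037, adjusted 0.00666), 0.59 with the B cell markers (permutation p = 0.00055, adjusted 0.00825), 0.51 with the cDC1 list (permutation p = 0.00257, adjusted 0.0257) and 0.49 with the maturation list (permutation p = 0.00381, adjusted 0.0312). The relation with the cDC1 list did not pass in the authors' series table (adjusted permutation p = 0.0961). With the cDC2 list r was 0.28 and with the growth and development list 0.02, neither past the threshold. How far IRF8 follows the dendritic cell lists apart from the B cell markers was not tested. Gene by gene, an r of at least 0.349 with IRF8, the value that an unadjusted p of 0.05 needs, was counted in each list. It was reached by 11 of 12 B cell markers, 3 of 10 genes of the pDC list (PLD4, BCL11A and TLR7), 3 of 10 maturation genes and 1 of 7 genes of the cDC1 list (WDFY4). Over 9146 other genes, 350 (3.83%) reached it. The rho values of the 4 lists lay between 0.52 and 0.60, and r stayed between 0.47 and 0.64 without the 2 farthest mares. Among the genes most like IRF8 were CIITA (r = 0.78), the transactivator of MHC class II genes, and PLD4 (0.65). IRF8 and CIITA were correlated at 0.73 in progressive and 0.90 in brutal mares.

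TCF4 correlated with the B cell markers at r = 0.69 (permutation p = 1e-05, the smallest the resamples can give, adjusted 0.0009; rho 0.68, adjusted 0.0018), and at 0.65 without the 2 farthest mares. It was most like EBF1 (r = 0.90) and PAX5 (0.85), transcription factors of the B lineage, and RALGPS2 (0.86). Their r was 0.82 to 0.87 without the 2 farthest mares. With the cDC1 list its r was 0.61 (permutation p = 0.00026, adjusted 0.00585). Over the 7 tested genes of that list, its r was 0.73 with WDFY4, 0.62 with BTLA, 0.37 with CADM1, 0.36 with SNX22, 0.26 with CLNK, -0.04 with XCL1 and -0.54 with ID2. With the pDC list r was 0.10 and not past the threshold. Its r was -0.53 with the monocyte markers (adjusted permutation p = 0.0204) and -0.51 with the neutrophil markers (adjusted permutation p = 0.0292), with rho of -0.50 (adjusted 0.0354) and -0.44 (adjusted 0.0827, not past the threshold). Neither r passed with slide means removed (adjusted permutation p = 0.119 and 0.0758), with quantile normalisation (0.102 and 0.069) or in the authors' series table (0.0982 and 0.0696). The summed signal of the 12 B cell markers had a median of 27.4 in progressive and 25.8 in brutal mares.

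IRF4 correlated with the plasma cell markers at r = 0.73 (permutation p = 4e-05, adjusted 0.0018; rho 0.47, adjusted 0.0583). Progressive 2 and progressive 7 were the 2 mares highest in both, and without the 2 farthest mares r was 0.40 (permutation p = 0.0262). IRF4 had an r of 0.90 with TXNDC5, a disulfide isomerase of secretory cells, and 0.88 with IGJ, the joining chain of polymeric immunoglobulin, but -0.13 with CD38. It was most like TUBA1C (r = 0.91), RRM2 (0.91), a ribonucleotide reductase subunit of dividing cells, and MZB1 (0.91), a chaperone of antibody assembly. Each of these 3 stayed at 0.81 or above without the 2 farthest mares. IRF4 and the cDC2 list were at r = -0.09. The pDC list was at r = -0.12 with IRF4, while MYBL2, a gene of that list, was at 0.87. MYBL2 was the 1 gene of 10 in that list at 0.349 or above, and 2 of 10 were at -0.349 or below. The plasma cell markers' summed signal ran from 5.62 to 47.2 in progressive and 5.21 to 13.5 in brutal mares. Its medians were alike, at 7.63 in progressive and 7.64 in brutal mares.

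**Figure D5:**
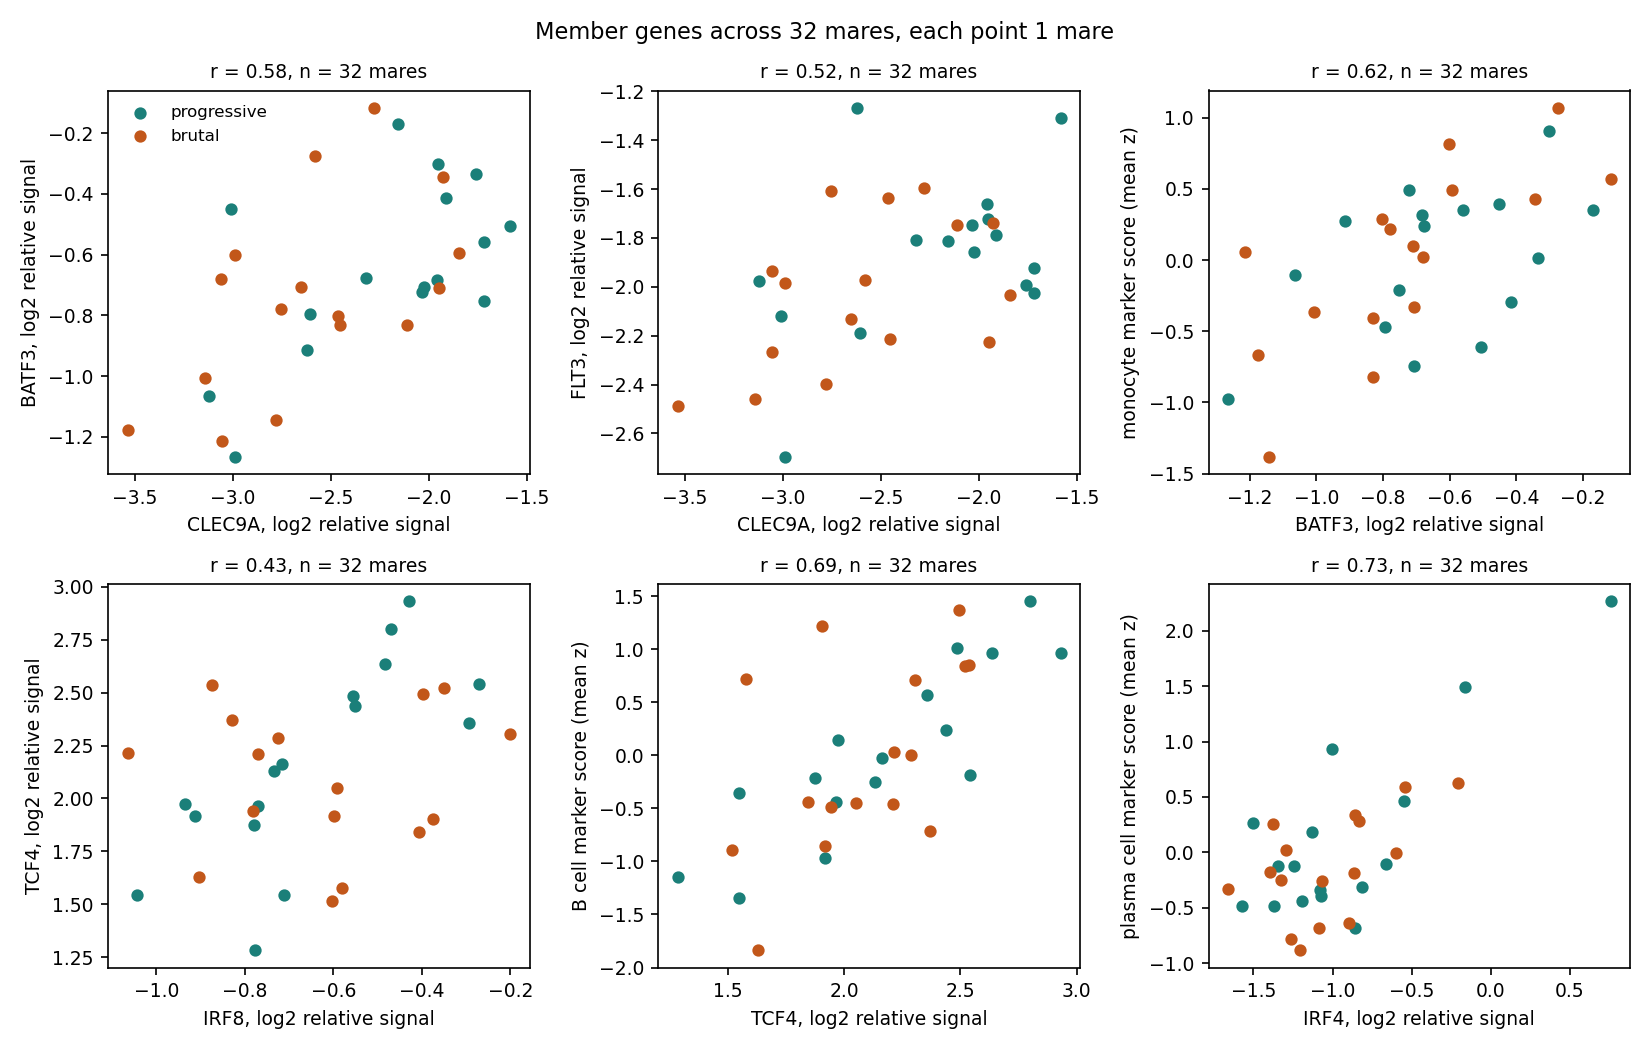
Each point is 1 mare, progressive or brutal, with log2 relative signals or mean z scores on the axes and r over the 32 mares above each panel. Top row, CLEC9A against BATF3, CLEC9A against FLT3 and BATF3 against the monocyte marker score. Bottom row, IRF8 against TCF4, TCF4 against the B cell marker score and IRF4 against the plasma cell marker score, where progressive 2 and progressive 7 stand apart at IRF4 values of 0.76 and -0.16.

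FLT3 was further at r = -0.46 with the 3 tested stem and progenitor cell markers, and had no list past the threshold after adjustment. Among single genes of the dendritic cell lists, FLT3 had an r of 0.62 with KLF4 and 0.61 with TLR7. KLF4 was the 1 gene of 10 in the cDC2 list at 0.349 or above, and TLR7 the 1 of 10 in the pDC list. With the whole lists, FLT3 was at r = -0.02 for cDC2 and 0.05 for pDC, neither past the threshold. The array quality measures moved with the members in part. The r of the members with the share of spots well above background lay between -0.11 and 0.19. With the log2 75th percentile signal, r was 0.38 for TCF4, -0.37 for IRF4 and 0.26 for FLT3, and the part of this in their correlations was not tested.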

How the data were processed

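Whole blood RNA of 32 mares, 200 ng each, was labelled with Cy3 and hybridised to 1 array per mare, per the labels' protocols. The deposited scanner files hold an intensity per spot, processed by Agilent Feature Extraction 10.10.1.1 per the file headers. The deposited series table holds log2 values of the same arrays with medians of 8.397 to 8.399, with a normalisation that no source used here states, and served as an alternative. Ranks in its columns correlated at 0.996 or above with the matching array, against 0.986 or below with the rest.

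Of 62976 spots, 1319 controls and 2483 outlier spots over all arrays (851 on progressive 16) were left out, and 0 were saturated. The processed signal was divided by the array's 75th percentile, turned to log2 and averaged per probe. Probes well above background on at least 8 of 16 arrays of a group were tested, 26368 in all, with limma 3.58.1 in R 4.3.3 (lmFit, eBayes, group as the only term, two-sided, Benjamini-Hochberg). Names came from the files for 26055 probes and by accession from a RefSeq table for 2806. Genes are taken at their brightest tested probe. Correlations and permutations (100000, seed 1) were run with scipy 1.17.1, numpy 2.4.6 and pandas 2.3.3 under Python 3.11.15, and plots with matplotlib 3.10.9. The scripts were tested on simulated data.

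The members and the 15 lists were chosen with earlier results of these data known. The lists were set by gene name, and how particular each listed gene is to its cell type was not tested. Named genes are all members; of each dendritic cell list the 4 with the smallest and the 2 with the largest p; the 3 most like each member; and the 3 brightest of other lists, used as values. FLT3LG lies outside this rule, and 1 gene that it names is not reported here. Alternatives were normexp with an offset of 50, quantile normalisation, another percentile, the series table, slide, row, filters, array weights, eBayes options, 0.1 as the threshold, and leaving out slides and mares. The number of arrays limits the precision.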

Additional observations from a re-analysis of the deposited data

How the results depend on the processing

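No paired analysis was possible because the 2 groups hold different mares that the labels do not match to each other. The count of member probes past the adjusted threshold was 0 under each setting run, and the smallest adjusted p of a brightest member probe was 0.845. The count at an unadjusted p under 0.05, 2 as reported, was 0 with normexp, array weights, slide 2 left out, slide 1 alone and slide 4 alone, 1 with the series table, the stricter filter, slide 3 left out, or without progressive 1, 2, 5 or 15 or brutal 8, 10, 12 or 16, 3 without progressive 11, and 5 on slide 3 alone. With 1 mare left out at a time, differences ran from 0.318 to 0.441 for CLEC9A, 0.0615 to 0.135 for BATF3, 0.119 to 0.214 for FLT3, -0.0526 to 0.00512 for IRF8 (0.00512 without brutal 5 and 0.00261 without progressive 13), -0.00667 (without progressive 2) to 0.16 for IRF4 and 0.0276 to 0.137 for TCF4. Over the other settings that kept at least 3 slides, CLEC9A ran from 0.199 with normexp to 0.483 without slide 1, and was 0.245 with array weights (unadjusted p = 0.145). Signs turned for IRF8 with slide 1, 2 or 4 left out (0.00555, 0.00425 and 0.0217) and on slide 3 alone (0.282), for TCF4 with slide 3 left out (-0.0625) and on slides 1, 2 and 4 alone (-0.0321, -0.135 and -0.0201), and on slide 3 alone for FLT3 (-0.0539) and IRF4 (-0.0489). These differences are those of each gene's brightest probe, and the cause of the turned signs was not tested. Member pairs past the adjusted threshold numbered 4 as reported and 2 with the series table, where BATF3 with FLT3 (adjusted p = 0.0832) and IRF8 with TCF4 (0.172) did not pass. They numbered 3 with slide means removed, where BATF3 with FLT3 did not pass (0.0839), and 3 with quantile normalisation or without progressive 16, where IRF8 with TCF4 did not (0.139 and 0.066). The relations with lists numbered 11 as reported and 10 to 12 otherwise. Those of TCF4 with monocyte and neutrophil markers did not pass with quantile normalisation (adjusted p = 0.102 and 0.069), with slide means removed (0.119 and 0.0758) or in the series table (0.0982 and 0.0696), and that of IRF8 with the cDC1 list did not pass in the series table (0.0961). CLEC9A is dim, and its second probe and XCR1 lie near the background, which limits both.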
